A study of Homo sapiens with 6 samples.

Results

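The genes described here encode 9 enzymes that build the ganglioside GD2 or act next to it in its pathway: UGCG, B4GALT5, B4GALT6, ST3GAL5, ST8SIA1, ST8SIA5, B4GALNT1, B3GALT4 and ST3GAL2. They were chosen by gene name, as the rows of the deposited gene count and FPKM tables that carry these symbols, and all 9 were found among the 58735 genes of the tables. The 6 RNA-seq libraries come from SY5Y, a neuroblastoma line of human origin: 3 from cells with DLX5 overexpression (DLX5 is a homeobox protein that regulates transcription) and 3 from control cells of that line. Both groups were grown in DMEM/F12 medium with fetal bovine serum. The labels do not give the vector or promoter that drives DLX5, what the control cells carry, or whether the DLX5 line is 1 clone. Nor do they say whether replicates were grown apart, so the p-values reflect library-to-library spread alone, and that spread may be technical.

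Gangliosides are sialic acid-bearing sphingolipids of the outer cell membrane. UGCG puts glucose on ceramide, B4GALT5 or B4GALT6 adds galactose to make lactosylceramide, and ST3GAL5 adds a sialic acid to make GM3. From there ST8SIA1 makes GD3, ST8SIA5 can extend GD3 to GT3, and B4GALNT1 adds N-acetylgalactosamine, turning GM3 into GM2 and GD3 into GD2. B3GALT4 then adds a galactose that takes GM2 and GD2 on to GM1 and GD1b, and ST3GAL2 can add a further sialic acid to those. GD2 is abundant on most neuroblastomas and is the target of therapeutic antibodies, and low ST8SIA1 expression has been tied to low GD2 in mesenchymal neuroblastoma cells. Only RNA was measured in these libraries, and neither enzyme activity nor GD2 itself.

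DLX5 was at 1609 ± 59.1 CPM (CPM: counts after TMM scaling for depth) in the DLX5 overexpression libraries and at 12.8 ± 0.804 CPM in the controls (SD, n = 3 each), so every library matched its label. MYCN, the gene in the study's title, was at 26.6 ± 0.344 CPM with DLX5 and at 4.89 ± 0.488 CPM in the controls. Libraries held 14644077 to 16886026 reads assigned to genes. All 12 markers of neuroblastoma and sympathetic neurons that were listed were present and lower with DLX5, their summed level lying between 2178 and 2292 CPM in the DLX5 libraries and between 5969 and 6478 CPM in the controls. Of 9 fibroblast markers 8 were higher and none lower, with sums of 6575 to 6834 CPM in the DLX5 libraries and 1439 to 1491 CPM in the controls. Most of these sums came from COL3A1 (mean 4383 CPM with DLX5, 1089 CPM in the controls) and COL1A1 (1947 and 128 CPM). Of 6 epithelial markers 4 were higher and 1 lower, with sums of 347 to 368 CPM in the DLX5 libraries and 19.2 to 22.4 CPM in the controls. Most of the epithelial sums came from KRT18 (mean 312 CPM with DLX5, 14.5 CPM in the controls). Of 6 tested Schwann and glial markers 3 were higher and 2 lower, with sums of 34.7 to 37 CPM with DLX5 and 43.1 to 49.1 CPM in the controls. The 9 endothelial and blood markers were near the floor, with sums of 3.10 to 4.63 CPM with DLX5 and 1.68 to 2.50 CPM in the controls. Over all tested genes 29.8% rose and 28.8% fell, by the test given below. Several called markers passed the filter on low counts only through the group where they are high. Among them were TH and S100B, through the controls, and CDH1, through the DLX5 libraries. The part of these marker shifts in the results on the enzymes was not tested.

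Upstream sequence was at hand for 4 of the 9 genes. The windows of UGCG, which rose, ST8SIA1, which rose, and B4GALT5, which fell, are shown because they stand at the first glycosylation step, the step that commits GM3 to GD3, and the member with the highest RNA level in the controls. Each is the 250 bases before a RefSeq start site (GRCh38.p14), read 5′ to 3′ on the strand of the gene. The ST8SIA1 window lies inside the span annotated for its gene, and the end of the UGCG window does too. Which start site these cells use was not tested. Capitals mark TAATT, the core letters that DLX homeodomains bind, on either strand, where a match on the other strand reads AATTA in the printed run.
ST8SIA1, chr12:22334708-22334957, minus strand: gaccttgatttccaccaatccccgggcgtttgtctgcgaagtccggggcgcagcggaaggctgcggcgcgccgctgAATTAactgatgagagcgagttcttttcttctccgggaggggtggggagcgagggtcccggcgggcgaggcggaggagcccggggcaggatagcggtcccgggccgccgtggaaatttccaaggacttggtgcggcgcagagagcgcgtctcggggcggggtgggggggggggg
UGCG, chr9:111896564-111896813, plus strand: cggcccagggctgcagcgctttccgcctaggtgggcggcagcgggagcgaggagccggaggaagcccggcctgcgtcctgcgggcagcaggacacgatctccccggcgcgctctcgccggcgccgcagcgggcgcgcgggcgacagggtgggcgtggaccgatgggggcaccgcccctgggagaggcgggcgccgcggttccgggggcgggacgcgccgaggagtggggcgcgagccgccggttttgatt
B4GALT5, chr20:49713879-49714128, minus strand: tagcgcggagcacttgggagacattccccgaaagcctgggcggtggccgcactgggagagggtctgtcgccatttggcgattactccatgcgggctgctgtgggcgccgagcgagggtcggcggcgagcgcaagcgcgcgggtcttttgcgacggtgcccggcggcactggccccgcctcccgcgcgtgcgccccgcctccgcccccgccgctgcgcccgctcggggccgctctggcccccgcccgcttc
The ST8SIA1 window held 1 match, on the other strand, 174 bases before the start site, and the windows of UGCG and B4GALT5 held none. None of the 5 windows listed for ST3GAL5 held one either, but these windows overlap in part and are not separate sequences. Over all 35116 promoter windows of the same length, 23.1% held TAATT. The E-box letters that MYC and MYCN bind, CACGTG, occurred in 6.34% of all windows and in none of the 8 windows of these genes. That motif was added after the values were seen. The 3 windows shown were 78.4% (UGCG), 69.2% (ST8SIA1) and 75.6% (B4GALT5) G or C, against a median of 58% over all windows. A match of letters is a description and says nothing of binding.

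Of the 9 genes, 8 had enough reads to be tested and ST8SIA5 did not. With DLX5 overexpression 5 of the 8 rose, UGCG, B4GALT6, ST3GAL5, ST8SIA1 and B3GALT4, and 2 fell, B4GALNT1 and B4GALT5 (edgeR quasi-likelihood test, Benjamini-Hochberg adjusted p under 0.05 over all 17269 tested genes). ST3GAL2 did not pass. The background is large in this comparison: 58.6% of all tested genes changed, 29.8% rose and 28.8% fell. The libraries of the 2 groups did not overlap for 7 of the 8 tested members, and for 62.5% of all tested genes. The median log2 fold change of the 8 was 0.68, against 0.00 over all tested genes (-0.00183). These counts describe the list and are not a test of it. The share of all tested genes with a change at least as large was 5.37% for B3GALT4, 8.39% for UGCG and 21% for B4GALNT1. It was 23.2% for B4GALT6, 24.7% for ST3GAL5, 28.7% for ST8SIA1 and 39.8% for B4GALT5. B3GALT4 passed the filter on low counts through its DLX5 libraries, and with it set aside 6 of 7 changed. In bulk RNA, a change in the number of cells that express a gene and a change in RNA per cell cannot be told apart.

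**Figure D1:**
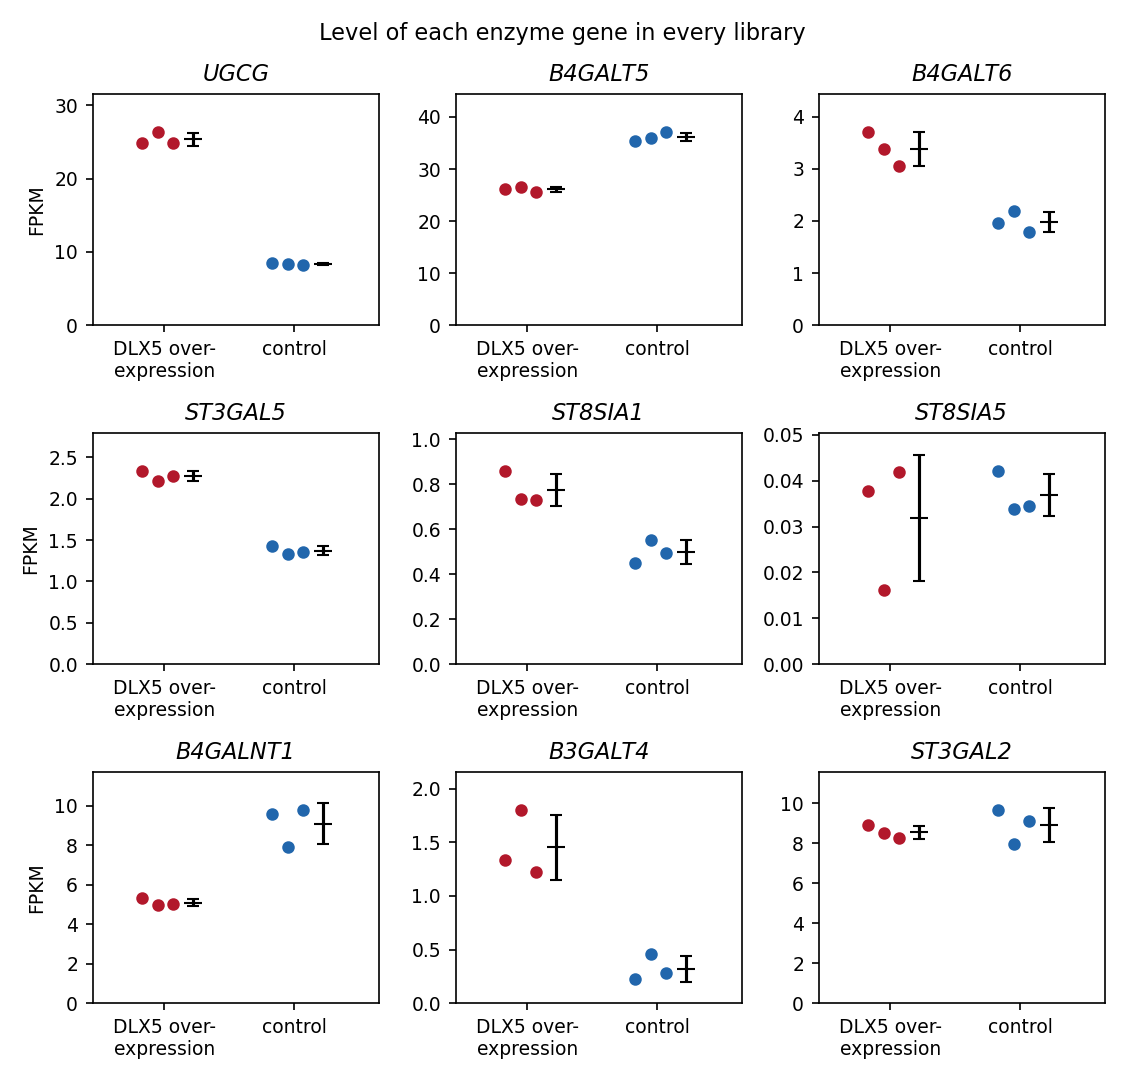
FPKM of each of the 9 genes (y axis, from 0, own scale per gene) in the 3 DLX5 overexpression libraries (red) and the 3 controls (blue), one point per library, with the mean and SD in black beside them. The groups are apart in 7 genes and overlap in ST8SIA5 and ST3GAL2; UGCG stands near 25 FPKM with DLX5 and near 8 FPKM in the controls.

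UGCG, glucosylceramide synthase, which makes the precursor of nearly all glycosphingolipids, rose about 3-fold. The gene (ENSG00000148154) lies on chromosome 9, 111896766 to 111935369, plus strand, in GRCh38, as do all coordinates here. Its levels, in the deposited FPKM (reads per gene length and library size), were 24.9, 26.4 and 24.9 FPKM in the DLX5 overexpression libraries, against 8.54, 8.37 and 8.23 FPKM in the controls. All 3 DLX5 libraries stood far above all 3 controls, and the libraries within a group were close. The log2 fold change was 1.60 with a standard error of 0.07, or 3.03-fold (adjusted p = 2.18e-17), and 8.39% of all tested genes changed by at least as much in either direction. UGCG had 5728 counts over the DLX5 libraries and 1871 over the controls, the deepest coverage among the genes that rose.

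The next step can be made by either of 2 lactosylceramide synthases, and their RNAs moved in opposite directions. B4GALT5 (ENSG00000158470, chromosome 20, 49632945 to 49713878, minus strand) is the more abundant of the pair. It was at 26.3, 26.5 and 25.5 FPKM with DLX5 and at 35.5, 35.9 and 37.1 FPKM in the controls. B4GALT5 fell by 0.47 on the log2 scale (SE 0.06, adjusted p = 1.16e-07), to 0.723 of the control level, with every DLX5 library below every control. B4GALT6 (ENSG00000118276, chromosome 18, 31622247 to 31685836, minus strand), the synthase known for its expression in brain, was at 3.70, 3.38 and 3.04 FPKM with DLX5 and at 1.97, 2.18 and 1.79 FPKM in the controls. B4GALT6 rose by 0.77 on the log2 scale (SE 0.11, adjusted p = 2.11e-06), a 1.71-fold change, again with no overlap between groups.

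Within each library B4GALT5 remained the more abundant. B4GALT5 exceeded B4GALT6 by 7.09, 7.86 and 8.39 times in FPKM in the DLX5 libraries, against 18.0, 16.4 and 20.7 times in the controls. The log2 ratio of B4GALT6 to B4GALT5, with 0.1 FPKM added to each, was -2.92 ± 0.118 with DLX5 and -4.13 ± 0.161 in the controls (SD, n = 3 each), a difference of 1.21. An exact two-sided permutation test gave p = 0.1, the smallest that 3 libraries against 3 allow. The ratio uses values of the same libraries as the tests above and is no separate support for them. An RNA that shares 107 exon bases with B4GALT6 on the other strand, AC017100.1, had 149 counts and fell.

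With the fall of B4GALT5 and the rise of UGCG, the 2 genes stood at nearly the same level in the DLX5 libraries, 26.1 ± 0.524 FPKM for B4GALT5 and 25.4 ± 0.857 FPKM for UGCG, with overlapping library values. In the controls B4GALT5 was at 36.1 ± 0.842 FPKM and UGCG at 8.38 ± 0.156 FPKM (SD, n = 3 each), far apart against the spread. The deposited length is 1.15 times the longest coding transcript for UGCG and equal to it for B4GALT5. The near tie in the DLX5 libraries therefore depends on the length used.

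ST3GAL5, GM3 synthase, which adds the first sialic acid, rose. The gene (ENSG00000115525, chromosome 2, 85837120 to 85905199, minus strand) was at 2.33, 2.21 and 2.28 FPKM with DLX5, against 1.43, 1.34 and 1.35 FPKM in the controls. The groups did not overlap, and the log2 fold change was 0.73 with a standard error of 0.08 (adjusted p = 1.50e-08), or 1.66-fold. The level is low per length in part because the length in the deposited table, 16318 bases over 69 annotated transcripts, is 3.68 times that of the longest coding transcript. The fold change does not depend on that length. On log2(FPKM + 1) it was 0.46, still past the threshold.

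ST8SIA1, GD3 synthase, the step from which GD2 and the other b-series gangliosides derive, also rose. The gene (ENSG00000111728, chromosome 12, 22063773 to 22437041, minus strand) was at 0.859, 0.736 and 0.732 FPKM in the DLX5 overexpression libraries and at 0.45, 0.554 and 0.493 FPKM in the controls. The lowest DLX5 library lay above the highest control. The log2 fold change was 0.64 with a standard error of 0.13 (adjusted p = 1.87e-04), or 1.55-fold, with a 95% interval of 0.36 to 0.91 on the log2 scale. ST8SIA1 rests on 166 to 209 counts per DLX5 library and 98 to 135 per control. Its annotated span overlaps that of CMAS, on the other strand, but the 2 genes share no exon bases, and CMAS did not pass. On log2(FPKM + 1), which compresses low values, the rise of ST8SIA1 was 0.24, still past the threshold.

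ST8SIA5, GT3 synthase, was the lowest of the 9 genes and near the floor of detection. The gene (ENSG00000101638, chromosome 18, 46667821 to 46759257, minus strand) had 10, 4 and 11 counts in the DLX5 libraries and 10, 9 and 9 in the controls. That is 0.0377, 0.0163 and 0.042 FPKM with DLX5, against 0.0421, 0.0339 and 0.0345 FPKM in the controls, and the groups overlapped. Summed and scaled, the ratio of DLX5 to control was 0.883, with an exact 95% binomial interval of 0.494 to 1.57 that covers counting error only. A change within that interval was not detectable at this depth.

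B4GALNT1, GM2/GD2 synthase, which makes GD2 itself from GD3, fell. The gene (ENSG00000135454, chromosome 12, 57623410 to 57633355, minus strand) was at 5.31, 4.98 and 5.01 FPKM with DLX5, against 9.58, 7.91 and 9.78 FPKM in the controls. All DLX5 libraries lay below all controls, and control replicate 2 was the lowest control. The log2 fold change was -0.83 with a standard error of 0.08 (adjusted p = 9.07e-10), to 0.562 of the control level. SLC26A10, on the other strand, shares 2136 exon bases with B4GALNT1, 26.7% of its exons. SLC26A10 had 602 counts over all libraries, against 5512 for B4GALNT1, and did not pass (log2 fold change 0.25, SE 0.16). No source used here says how reads in the shared bases were assigned.

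The 2 enzymes between GM3 and GD2 changed in opposite directions, which brought their levels closer together. B4GALNT1 exceeded ST8SIA1 by 6.18, 6.76 and 6.85 times in FPKM in the DLX5 libraries, against 21.3, 14.3 and 19.9 times in the controls. The log2 ratio of ST8SIA1 to B4GALNT1, with 0.1 FPKM added to each, was -2.57 ± 0.0667 with DLX5 and -3.94 ± 0.282 in the controls (SD, n = 3 each). The difference was 1.36, with p = 0.1 in the exact two-sided permutation test, again the smallest possible. Control replicate 2 was nearest to the DLX5 libraries, and without it the difference was 1.53.

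**Figure D2:**
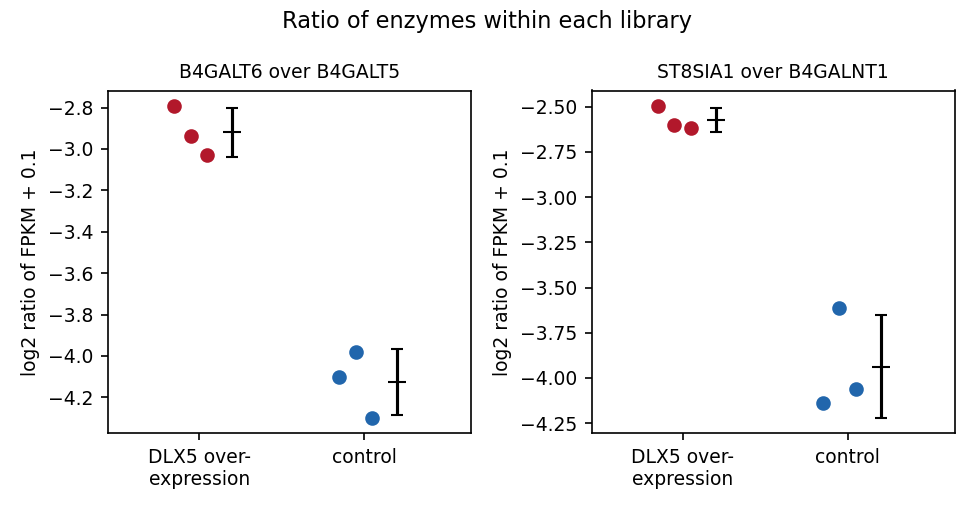
Log2 ratio of FPKM + 0.1 (y axis, not starting at 0) for B4GALT6 over B4GALT5 and for ST8SIA1 over B4GALNT1, in the 3 DLX5 overexpression libraries (red) and the 3 controls (blue), with mean and SD in black. In both panels the 3 DLX5 libraries lie above the 3 controls, by 1.21 and by 1.36 on average.

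B3GALT4, which takes GD2 on to GD1b and GM2 on to GM1, showed the largest fold change of the 8 tested genes. The gene (ENSG00000235863, chromosome 6, 33277132 to 33284832, plus strand) was at 1.34, 1.80 and 1.23 FPKM with DLX5, against 0.226, 0.454 and 0.282 FPKM in the controls. No library of one group reached the other. The log2 fold change was 2.16 with a standard error of 0.30 (adjusted p = 6.73e-07), or 4.45-fold, and 5.37% of all tested genes changed by at least as much. It rests on few reads, 48 to 66 counts per DLX5 library and 8 to 18 per control, and its 95% interval runs from 1.54 to 2.77 on the log2 scale. On log2(FPKM + 1) the rise was 0.89. WDR46, whose span overlaps B3GALT4 on the other strand without shared exon bases, had 9799 counts against 204 for B3GALT4. WDR46 fell by 0.39 on the log2 scale (SE 0.06), opposite to B3GALT4.

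ST3GAL2, which sialylates the GM1 and GD1b that follow, did not pass. The gene (ENSG00000157350, chromosome 16, 70375978 to 70439237, minus strand) was at 8.89, 8.48 and 8.25 FPKM with DLX5 and at 9.65, 7.96 and 9.12 FPKM in the controls, and the groups overlapped. The log2 fold change was -0.06 with a standard error of 0.07 (adjusted p = 0.497), and its 95% interval of -0.20 to 0.09 bounds the change in either direction.

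**Figure D3:**
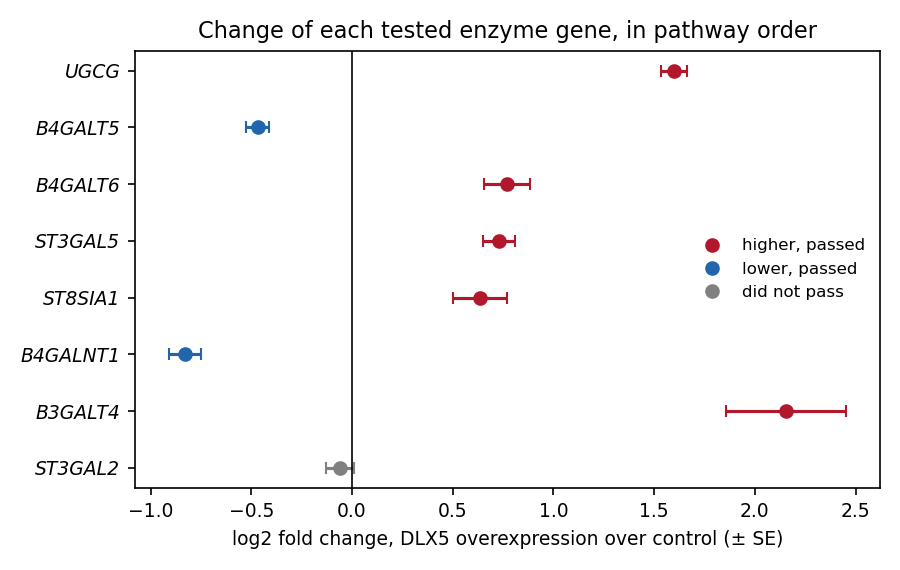
Log2 fold change of DLX5 overexpression over control (x axis) for the 8 tested genes, in pathway order from UGCG at the top, with bars of 1 standard error from the edgeR fit. Red genes rose, blue genes fell and the grey gene, ST3GAL2, did not pass; B3GALT4 at 2.16 and UGCG at 1.60 lie farthest to the right, and B4GALNT1 at -0.83 farthest to the left.

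The order of levels per length changed with these shifts. In the DLX5 libraries B4GALT5 and UGCG came first and did not differ beyond their spread, followed by ST3GAL2 at 8.54 ± 0.326, B4GALNT1 at 5.10 ± 0.183, B4GALT6 at 3.37 ± 0.330, ST3GAL5 at 2.27 ± 0.0626, B3GALT4 at 1.46 ± 0.304, ST8SIA1 at 0.776 ± 0.0720 and ST8SIA5 at 0.032 ± 0.0138 FPKM (SD, n = 3). In the controls B4GALT5 led, B4GALNT1 at 9.09 ± 1.03, ST3GAL2 at 8.91 ± 0.866 and UGCG came next with overlapping libraries, and B4GALT6 at 1.98 ± 0.197, ST3GAL5 at 1.37 ± 0.0501, ST8SIA1 at 0.499 ± 0.0522, B3GALT4 at 0.321 ± 0.119 and ST8SIA5 at 0.0368 ± 0.00459 FPKM followed. ST8SIA1 and B3GALT4 overlapped in 1 control library each, and B3GALT4 lay above ST8SIA1 in the DLX5 libraries. The deposited lengths exceed the longest coding transcript by 1 to 3.68 times among these genes, 2.64 times for B4GALNT1 and 1.49 times for ST8SIA1, so the order between genes depends on that choice of length while the fold changes do not.

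The genes whose profiles over the 6 libraries were most like those of the 2 GD2-forming enzymes were found by the root mean square distance of centred log2 CPM among tested protein-coding genes. For ST8SIA1 they were FGFR1OP2, UGGT2 and TM6SF2, at distances of 0.0516, 0.0546 and 0.0562. For B4GALNT1 they were BAHCC1, APC2 and HK2, at distances of 0.0323, 0.0357 and 0.048. With 6 libraries in 2 groups this is a description of size and direction of change, and nothing about shared function follows from it.

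Genes that supply, compete with or undo ganglioside synthesis were taken from 9 further lists of 77 genes in the tables. Of the 73 tested, 29 rose and 21 fell, which is 68.5% changed, against 58.6% of all tested genes. Their median log2 fold change was 0.06. A share near the background is no result about a list.

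Among 16 tested hydrolases and activator proteins of ganglioside breakdown, most of them lysosomal, 11 rose, 2 fell and 3 missed the threshold, and the list median was 0.31 on the log2 scale. Over all tested genes 29.8% rose and 28.8% fell, and the list itself was not tested. Without DLX5 overexpression replicate 1 or 2, 9 genes of the list rose and 1 fell. With upper-quartile factors or library totals 9 rose and 2 fell. NEU4, a sialidase, had the largest change of the list in size and fell by 2.40 on the log2 scale (SE 0.40). It was at 0.0743 FPKM with DLX5 and 0.398 FPKM in the controls, and was picked out for its values. NEU4 rests on few reads, 4, 6 and 7 counts in the DLX5 libraries and 32, 38 and 20 in the controls. It passed the filter on low counts through its control libraries. GM2A, an activator protein needed for the breakdown of GM2, rose by 1.14 ± 0.07 (log2 fold change ± SE). GM2A was at 16.7 FPKM on average with DLX5 and at 7.57 FPKM in the controls. CTSA, the protective protein of lysosomal sialidase and galactosidase, rose by 0.88 ± 0.06, and GLB1, the galactosidase that acts on GM1, by 0.71 ± 0.07.

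Of 11 tested genes of nucleotide sugar supply 7 rose and 1 fell, with a median of 0.32. That is 72.7% changed, against 58.6% of all tested genes, and the list was not tested. UGP2, which makes UDP-glucose, the sugar donor of UGCG, rose by 1.04 ± 0.07. The galactokinase GALK1 rose by 0.47 ± 0.08. GNE, the rate-limiting enzyme of sialic acid synthesis, was the member that fell, by 0.42 on the log2 scale (SE 0.07), with 8.89 FPKM on average in the DLX5 libraries and 11.9 FPKM in the controls.

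Ceramide synthesis, upstream of UGCG, went both ways: of 13 tested genes 3 rose and 6 fell. That is 69.2% changed, against 58.6% of all tested genes, and the list was not tested. The ceramide synthases CERS6 and CERS1 fell by 0.76 and by 1.16 on the log2 scale (SE 0.07 and 0.16), and SPTSSA, a small subunit of serine palmitoyltransferase, fell by 0.42 (SE 0.07), while CERS5 rose by 0.41 ± 0.07. CERS1 shares 67.1% of its exon bases with GDF1 on the same strand, and GDF1 is listed with 0 counts. How reads in the shared bases were assigned is not given, so whether the CERS1 counts include them is not known. Among enzymes that put ceramide to other uses 2 of 5 rose and 1 fell, or 60% changed, near the 58.6% of all tested genes. Without control replicate 3 the count was 5 of 6 tested, 3 higher and 2 lower. CERK, ceramide kinase, fell by 1.25 (SE 0.06), with 22.8 FPKM in the DLX5 libraries and 54.3 FPKM in the controls. The sphingomyelin synthase SGMS1 rose by 0.62 ± 0.09 and the ceramide phosphoethanolamine synthase SAMD8 by 0.29 ± 0.07. GAL3ST1, which makes sulfatide, was at -0.35 ± 0.17 and did not pass (adjusted p = 0.0851), though it did without control replicate 3 (log2 fold change -0.47, adjusted p = 0.0331). Of the 3 lipid transfer proteins, GLTP rose by 0.38 ± 0.08 and the ceramide carrier COL4A3BP was at -0.03 ± 0.08. PLEKHA8, which carries glucosylceramide, fell by 0.17 (SE 0.06, adjusted p = 0.0222). That call was lost without DLX5 overexpression replicate 1 or 3 or control replicate 3 (adjusted p = 0.143, 0.0587 and 0.0768).

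Among enzymes of the globo and lacto series, which also start from lactosylceramide, A4GALT, Gb3 synthase of the globo series, changed most. A4GALT rose by 2.32 ± 0.19 (adjusted p = 3.63e-11) to 2.85 FPKM with DLX5, against 0.568 FPKM in the controls. B3GALT5 fell by 1.15 (SE 0.24) and B3GALNT1, globoside synthase, fell by 0.42 (SE 0.14, adjusted p = 0.0151). The call of B3GALNT1 was lost without DLX5 overexpression replicate 3 or control replicate 1 (adjusted p = 0.0846 and 0.0696). B3GNT5, which opens the lacto series, was at -0.22 ± 0.11 (adjusted p = 0.0884), and it passed without DLX5 overexpression replicate 2 or control replicate 1 (adjusted p = 0.0101 and 0.0337).

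Among the other sialyltransferases 2 of 11 tested rose and 5 fell, or 63.6% changed, near the 58.6% of all tested genes. ST3GAL1, which acts mainly on O-glycans, rose by 1.77 ± 0.07, whereas the polysialyltransferase ST8SIA2, which modifies NCAM in developing neurons, fell by 2.12 (SE 0.09), ST8SIA3 fell by 1.28 (SE 0.07) and ST3GAL6 fell by 0.84 (SE 0.09). ST8SIA2 was at 1.79 FPKM with DLX5 and at 7.81 FPKM in the controls. Within the ST8SIA family ST8SIA1 thus rose while ST8SIA2 and ST8SIA3 fell. ST8SIA4, at 0.15 ± 0.22, did not pass, and ST8SIA5 and ST8SIA6 had too few reads to be tested. ST3GAL6 shares 235 exon bases with DCBLD2, on the other strand, a more abundant gene that fell as well. Among 7 tested B4GALT and B4GALNT paralogs 1 rose and 2 fell, or 42.9% changed. B4GALT1, the widely expressed glycoprotein galactosyltransferase, rose by 1.39 ± 0.06, B4GALNT3 fell by 1.02 (SE 0.11) and B4GALT2 fell by 0.57 (SE 0.07), while B4GALT4 was at 0.14 ± 0.08 and did not pass. Of the pair that sets O-acetylation of sialic acids, SIAE, an esterase that removes the acetyl group, rose by 0.53 ± 0.09 and CASD1, which adds it, fell by 0.27 (SE 0.07). SIAE shares 28.1% of its exon bases with TBRG1, which did not pass.

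**Figure D4:**
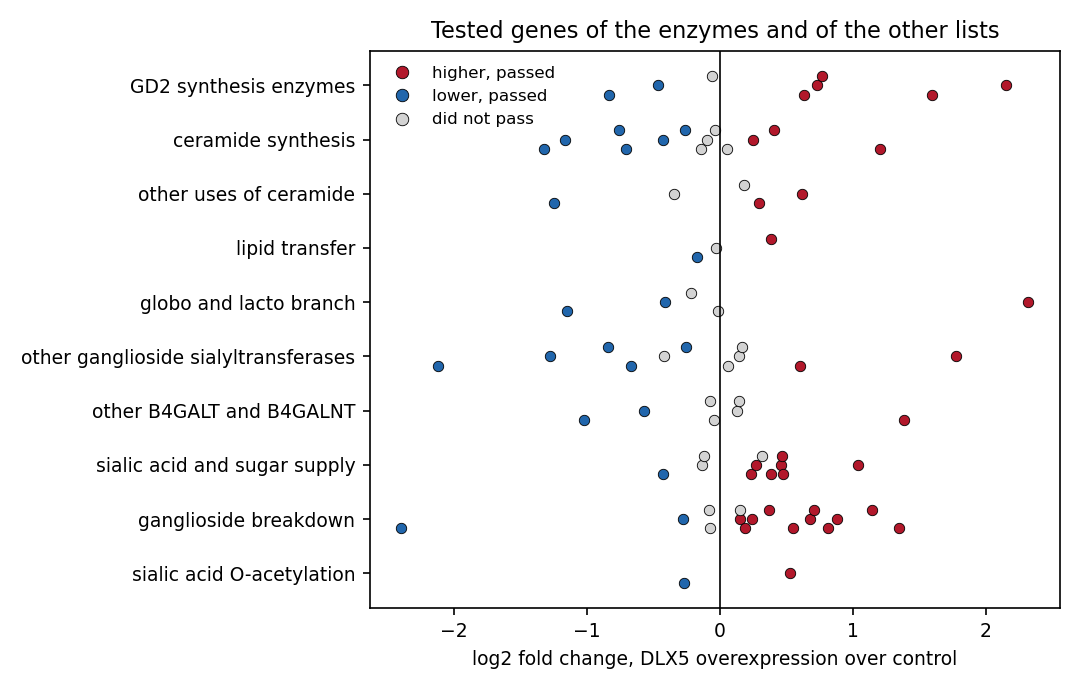
Log2 fold change of DLX5 overexpression over control (x axis) for every tested gene of the 9 enzymes and of 9 further lists, one row per list and one point per gene, spread vertically only to avoid overlap. Red points rose, blue points fell and grey points did not pass. In the row of ganglioside breakdown 11 of 16 points are red, and NEU4, at -2.40 and on few counts, is the point farthest to the left in the plot.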

How the data were processed

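Gene counts and FPKM of 6 libraries were used, grouped by their titles into 3 with DLX5 overexpression and 3 controls. Per the labels' protocols, RNA came from a Trizol extraction and a NEBNext Ultra kit. The deposited counts are whole numbers per gene. The submitters' processing notes name HISAT2 2.0.5, featureCounts 1.5.0-p3 and hg19, without settings, and no source used here gives the strand setting. All 58735 genes nevertheless carry the starts and ends of GENCODE 29 on GRCh38, so coordinates are GRCh38. The FPKM values deposited by the authors are the same counts divided by gene length (the union of exons, in all 44 genes checked) and a scaled library total, so they are not independent of the counts.

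Counts were tested in edgeR 4.0.16 (R 4.3.3) with filterByExpr, TMM scaling and the two-sided quasi-likelihood test, with Benjamini-Hochberg adjustment over 17269 genes and a threshold of 0.05. Standard errors are the change over the square root of F. Libraries of a group had a chi-square of 2.23 to 5.07 per degree of freedom, above sampling noise, and none was taken for a copy. An exact permutation test cannot go below 0.1 here. The fit was tested on simulated data in which only a small part of the genes changed, unlike in these libraries. Alternatives were other scalings and filters, DESeq2 1.42.0, limma-voom (limma 3.58.1), limma on log2 FPKM, a replicate block, stricter thresholds and each library left out. The members, lists and motif were chosen with earlier results of these data known. All members are named, with up to 4 tested genes of each further list by smallest p, except 2 that are not reported here. NEU4, ST8SIA4, ST8SIA6, the markers named singly and genes overlapping another were named after their values were seen. Promoters are from RefSeq (GRCh38.p14), and 4 of 9 genes matched. Figures used matplotlib 3.10.9.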

Additional observations from a re-analysis of the deposited data

How the results depend on the processing

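All 7 calls among the enzymes, 5 higher and 2 lower, were made under every scaling, filter and tool tried and without each library in turn, and the one setting that ended any of them was a minimum change of 2-fold. Under that setting 2 of the enzymes were called, UGCG and B3GALT4, as were 15 of the further pathway genes (50 otherwise) and, as the count of genes changed with DLX5 overexpression, 2839 (10121 otherwise). The fold changes of low genes were smaller on log2(FPKM + 1): 0.89 for B3GALT4, 0.24 for ST8SIA1 and 0.46 for ST3GAL5, by the construction of that scale. With 1 FPKM in place of 0.1 added, the differences of the log2 ratios were 1.01 for B4GALT6 over B4GALT5 and 0.97 for ST8SIA1 over B4GALNT1, and leaving out single libraries gave 1.12 to 1.28 and 1.26 to 1.53. Leaving out single libraries gave 45 to 51 changed pathway genes and 9277 to 9841 changed genes. The direction split of the pathway genes moved with the scaling. With upper-quartile factors 27 rose and 23 fell, and with library totals 26 rose and 26 fell. COL4A3BP, at -0.03, ran from -0.0727 to 0.0085 without single libraries and changed sign without DLX5 overexpression replicate 3 (0.0078) or control replicate 3 (0.0085) and passed in neither. B3GNT5 passed with upper-quartile factors, library totals or a replicate block (adjusted p = 0.047, 0.0262 and 0.0398), and GAL3ST1 with library totals (adjusted p = 0.0397). The list of lipid transfer proteins had 1 called gene in place of 2 at an adjusted p under 0.01 and without any of 3 libraries. ST8SIA5, tested with no filter on low counts, was at -0.19 ± 0.51 (adjusted p = 0.814).

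Same-numbered libraries did not deviate together (correlations of deviations from group means of 0.00688, 0.0944 and -0.0399), so the replicate numbers were not taken as pairs. With the replicate block 7 enzymes and 51 pathway genes were called, and the number of genes changed with DLX5 overexpression was 10224. The ratio differences of 1.21 and 1.36 cannot change under that block, since the mean of paired differences equals the difference of means. Depth limits ST8SIA5 and B3GALT4 most.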
